A study of Mus musculus with 12 samples.

Results

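The genes described here are the ciliary and axonemal genes of the mouse whose current symbol starts with Cfap, Ift or Bbs followed by a number, Dnah, Dnai, Dnal, Tekt, Rsph, Drc or Tctn. The array carries 78 of them among 19057 named genes, and 52 of the 78 had a probe with a detection p-value under 0.05 on 3 or more arrays, among 11445 genes that passed that filter. The 52 genes were grouped by symbol alone, so a gene may act outside the structure its group is named for. Counted as axonemal were 28 of 53 on the array (16 Cfap genes, 5 dynein chains, 4 radial spoke genes, 2 nexin-dynein regulatory complex genes and 1 tektin). Intraflagellar transport and the BBSome had 21 of 22, and the transition zone all 3 tectonic genes. The family was picked because many Cfap genes were higher after treatment. The values of Cfap genes are therefore given as a description, with standard errors and no p-value, in every comparison, since all comparisons reuse the same arrays.

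A cilium is a hair-like organelle built on microtubule doublets, the axoneme. Motile cilia and sperm tails carry dynein arms, radial spokes and nexin-dynein links on the doublets, and Cfap (cilia and flagella associated protein) genes encode many of the smaller parts, including proteins that line the inside of the doublets. Most other cells, stem cells included, can build a single primary cilium for signalling. All cilia are assembled by intraflagellar transport, in which IFT-B complexes carry cargo to the tip and IFT-A complexes bring it back, while the BBSome moves membrane proteins and tectonics form part of the gate at the ciliary base.

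Expression was measured on single-colour Illumina bead arrays in E14 cells, a wild type male embryonic stem cell line of strain 129/Ola, grown without feeders on gelatin with serum and LIF. The 12 arrays form 4 groups of 3. The 0 h group was untreated wild type cells, and the other groups were the same cells after 2 h, 6 h and 18 h in 50 nM panobinostat (LBH589), an inhibitor of histone deacetylases. No vehicle-treated cells and no untreated cells kept for the same hours are among the samples analysed here, so drug and hours in culture cannot be told apart. Nothing in the labels ties the arrays to separate cultures, so p-values measure the spread between these samples, and that spread may be technical. E14 is 1 line, and the number of arrays limits the precision. The mean raw signal of an array ranged from 307.3 to 482.7, and 16813 to 18111 of 45281 probes were detected. The cells carried embryonic stem cell markers, with 11 of 12 (all but Fgf4) detected on all 3 arrays of the 0 h group, among them Pou5f1 and Nanog. In bulk RNA, fewer cells with a transcript and less RNA per cell cannot be told apart.

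Every value below is a log2 normalized intensity, or a difference between 2 such values, from the brightest kept probe of the gene. A gene is called higher or lower where its adjusted p-value from limma's moderated test, corrected over all 11445 genes, was under 0.05. The 26 genes with no kept probe were Cfap36, Cfap61, Cfap65, Cfap70, Cfap74, Cfap97d1, Cfap97d2, Cfap100, Cfap126, Cfap221, Cfap298, Dnah1, Dnah2, Dnah5, Dnah6, Dnah9, Dnah10, Dnah17, Dnaic2, Dnal4, Dnali1, Drc7, Ift46, Rsph6a, Tekt3 and Tekt5. Their probes read between 4.30 and 5.54 on the log2 scale, and 19 of the 26 were detected on no array. Thus 10 of the 15 dynein genes on the array, most of them heavy chains, had no kept probe. Just inside the filter lay Cfap58, Cfap299 and Tctn1, each detected on 3 arrays, and just outside lay Cfap126 (2 arrays, both at 0 h), Cfap298 (1 at 2 h and 1 at 18 h) and Dnali1 (1 at 6 h and 1 at 18 h). Cfap52, Cfap57, Cfap58, Cfap69, Cfap161, Cfap206 and Cfap299 were detected on no 0 h array and passed the filter through treated arrays alone, so they could enter only by being higher after treatment.

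Promoters of ciliary genes are known for the X-box, a site bound by RFX transcription factors. RefSeq promoters of build GRCm38.p6, 250 bases before to 50 after the start of transcription, were at hand for 68 of the 78 genes. A full X-box, 14 letters with an RFX recognition element on each arm, was searched on both strands and occurred in 13 of the 68 (19.1%), against 2.17% of all 27025 promoters of the same length. The sequences below show the 250 bases before the start for 3 genes with large changes, and shorter stretches around the match for 5 others. Capitals mark the X-box letters, and every sequence reads 5′ to 3′ on the strand of the gene. Cfap206 lies at chr4:34730207-34730456 (minus strand), Cfap45 at chr1:172520880-172521129 (plus strand) and Rsph9 at chr17:46144201-46144450 (minus strand), the last with no match before the start. The stretch of Tctn2 is chr5:124598664-124598723 (plus strand), that of Ift57 chr16:49699184-49699243 (plus strand) and that of Bbs7 chr3:36613474-36613533 (minus strand). The stretch of Ift22, with 2 matches, is chr5:136908064-136908149 (plus strand), and that of Cfap20dc chr14:8666356-8666415 (minus strand).
Cfap206: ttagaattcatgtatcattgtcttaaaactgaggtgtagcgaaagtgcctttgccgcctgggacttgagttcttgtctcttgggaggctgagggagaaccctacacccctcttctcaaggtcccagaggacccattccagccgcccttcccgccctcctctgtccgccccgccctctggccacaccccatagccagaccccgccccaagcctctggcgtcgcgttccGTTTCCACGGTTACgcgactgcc
Cfap45: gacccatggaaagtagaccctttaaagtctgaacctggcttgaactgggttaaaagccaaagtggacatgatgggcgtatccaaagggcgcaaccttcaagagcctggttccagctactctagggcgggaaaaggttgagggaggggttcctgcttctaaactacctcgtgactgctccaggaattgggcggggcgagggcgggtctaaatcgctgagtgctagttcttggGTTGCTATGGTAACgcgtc
Rsph9: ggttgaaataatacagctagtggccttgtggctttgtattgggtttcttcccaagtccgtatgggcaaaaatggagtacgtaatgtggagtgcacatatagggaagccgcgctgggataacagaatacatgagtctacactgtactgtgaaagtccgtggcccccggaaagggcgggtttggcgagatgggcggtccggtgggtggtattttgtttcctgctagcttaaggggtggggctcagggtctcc
Tctn2: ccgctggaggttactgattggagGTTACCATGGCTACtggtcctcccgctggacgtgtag
Ift57: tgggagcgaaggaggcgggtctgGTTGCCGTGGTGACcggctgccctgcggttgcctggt
Bbs7: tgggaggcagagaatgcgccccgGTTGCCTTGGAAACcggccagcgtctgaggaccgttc
Ift22: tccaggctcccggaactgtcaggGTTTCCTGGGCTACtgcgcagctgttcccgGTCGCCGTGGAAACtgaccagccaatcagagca
Cfap20dc: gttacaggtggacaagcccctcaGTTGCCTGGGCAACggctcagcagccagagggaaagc

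Cfap206 and Cfap45 thus carry the X-box letters within 25 bases of the start, and Rsph9, which was higher by 2.17 at 18 h on the log2 scale, does not carry them in this window. Among genes with a kept probe and a promoter, the full X-box occurred in 6 of the 22 that were called higher at 6 h or 18 h (27.3%: Bbs4, Bbs7, Cfap45, Cfap206, Ift57 and Tctn2) and in 4 of the 21 that were not (Bbs1, Cfap20dc, Ift22 and Tctn1). The shorter letters GTTGCC, part of many X-boxes and so overlapping some of them, were found in 25 of the 68 promoters (36.8%) against 12.7% of all promoters. They occurred in 10 of the 22 genes called higher and in 9 of the 21 others. The forkhead letters TGTTTAC, of the kind bound by FOXJ1, occurred in 4 of the 68 (5.88%: Cfap20, Cfap43, Dnah17 and Tekt3) against 3.55% of all promoters. A match describes letters and shows neither binding nor a cause.

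Apart from the Cfap genes, 36 genes of the family had a kept probe, of which 33 were detected on all 3 arrays at 0 h and the other 3 on 1 or 2. Of these 36, 12 were called higher and 3 lower after 6 h of treatment, with 14 higher and 1 lower after 18 h. Of all genes tested, 31.4% were called at 6 h, 17.8% as higher and 13.6% as lower. The shares at 18 h were 36.7% in all, 21% as higher and 15.7% as lower. The share called higher among the 36 was 33.3% at 6 h and 38.9% at 18 h. Their median change was 0.21 at 6 h and 0.45 at 18 h on the log2 scale, beside 0.023 and 0.045 over all genes. In place of 12 higher calls at 6 h there were 7 with replicate 3 of the 0 h group left out, and 7 again with either of replicates 1 and 2 at 6 h left out. Over all genes the higher calls fell too, from 2033 to 1567, 1467 and 1570 in the same order. Scaling each array to its 75th percentile moved the median of all genes by -0.11 at 6 h and -0.16 at 18 h, and the share of higher genes among all calls at 18 h from 57.1% to 43.1%. With that scaling 13 of the 36 were higher and 2 lower at 18 h. Of all 11445 genes, 1779 in place of 2400 were then higher and 2350 in place of 1800 lower. With the 16 Cfap genes added, 17 of 52 genes were higher and 4 lower at 6 h, and 23 were higher and 1 lower at 18 h (17 and 2 with that scaling), counts that contain the rise by which the family was picked. At 2 h, 2 genes were called, both higher and both Cfap genes, where 3.45% of all genes were called (2.39% higher, 1.07% lower), or 763 in place of 395 with the replicate number as a block.

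**Figure D1:**
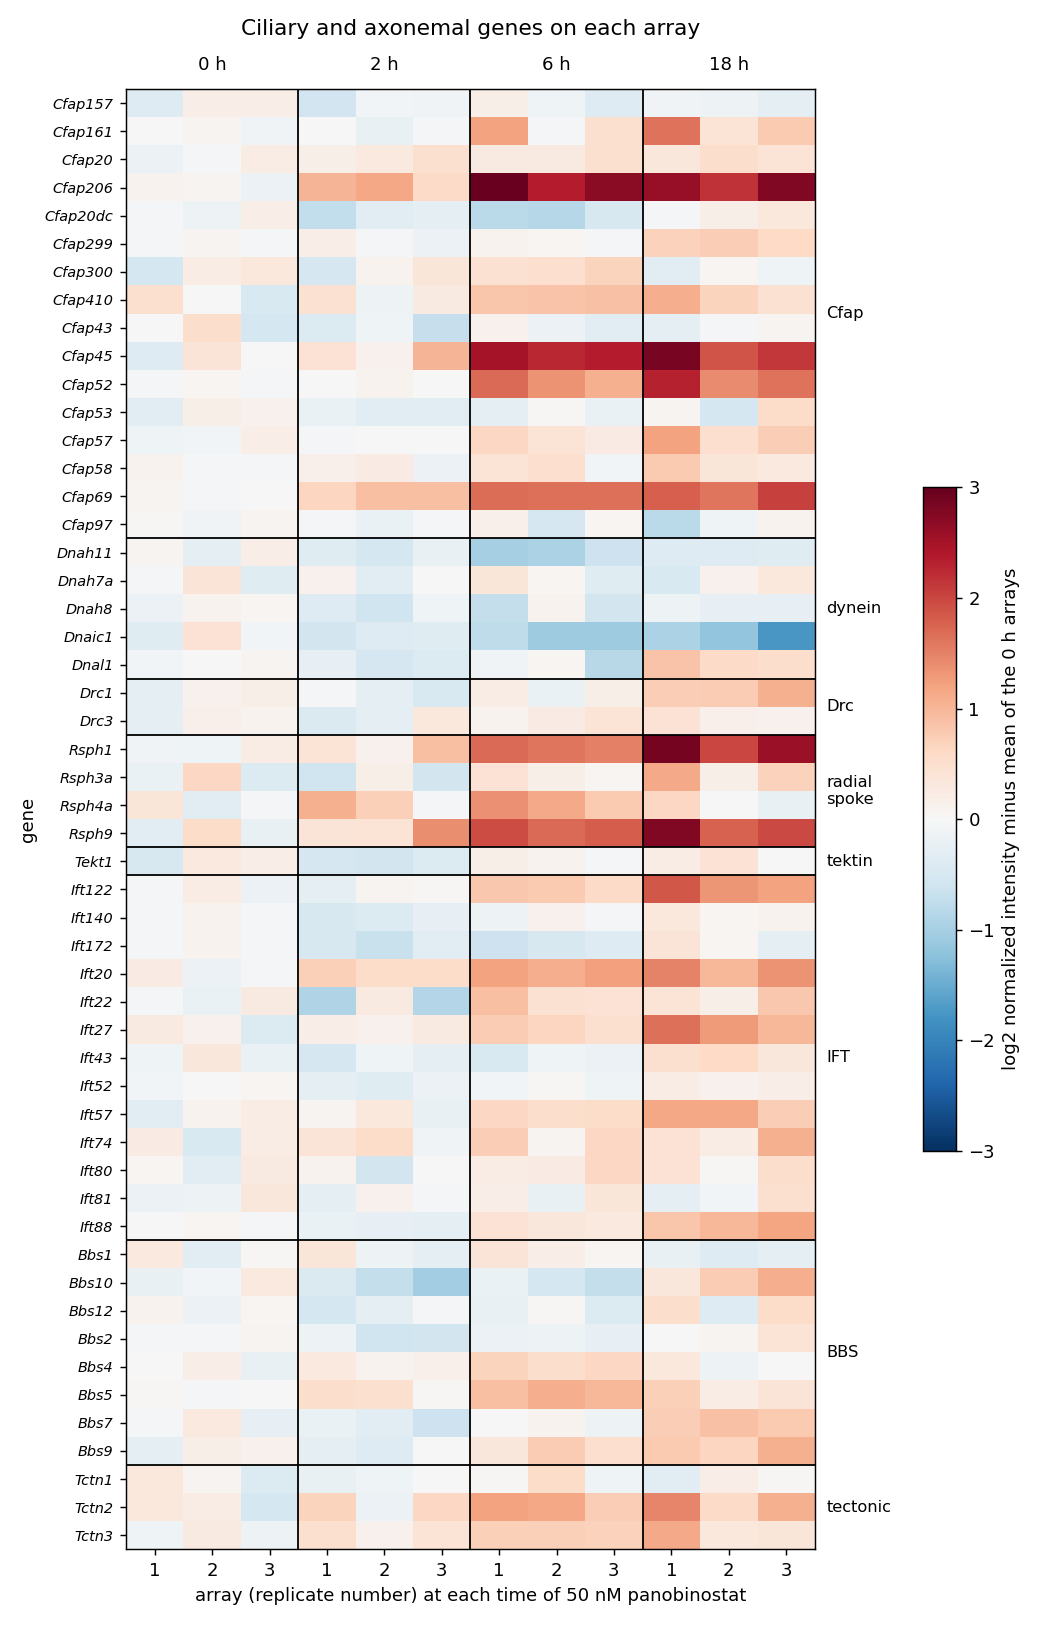
Each cell is the log2 normalized intensity of a gene (row) on 1 array (column) minus the mean of the 3 arrays at 0 h, on a colour scale from -3 (blue) to 3 (red), with genes grouped by symbol. The red rows at 6 h and 18 h are Cfap206, Cfap45, Cfap52, Cfap69, Rsph1 and Rsph9, and Dnaic1 is the bluest row.

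The comparisons with 0 h share the 0 h arrays, so their values are set side by side. By the calls at 6 h and 18 h, 14 genes were higher at both times: Bbs9, Cfap45, Cfap52, Cfap69, Cfap206, Cfap410, Ift20, Ift27, Ift57, Ift122, Rsph1, Rsph9, Tctn2 and Tctn3. Another 9 were called higher at 18 h and not at 6 h, namely Bbs7, Bbs10, Cfap20, Cfap57, Cfap161, Cfap299, Dnal1, Drc1 and Ift88. Bbs4, Bbs5 and Rsph4a were called higher at 6 h and not at 18 h. Dnaic1 was lower at both times, and Cfap20dc, Dnah11 and Ift172 were called lower at 6 h alone. The other 22 genes were called at neither time.

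The Cfap genes past the threshold are listed as a description, since their rise led to the choice of the family and 7 of the 16 could enter only by being higher after treatment. They were 5 higher and 1 lower at 6 h and 9 higher at 18 h, and nothing is read from these numbers. Cfap206, an axonemal protein that anchors a radial spoke to the doublet in Tetrahymena, read 4.71, 4.69 and 4.44 at 0 h, 5.64, 5.79 and 5.18 at 2 h, 6.97 to 7.58 at 6 h and 6.79 to 7.40 at 18 h. None of the 0 h arrays detected its probe and all 9 treated arrays did, and the treated groups did not overlap the 0 h group at any time. Against the lowest detected signals of the 0 h arrays it was at least 1.40-fold higher at 2 h, 4.71-fold at 6 h and 4.26-fold at 18 h, with measured log2 changes of 0.92 at 2 h, 2.67 at 6 h and 2.52 at 18 h (SE 0.21). At 2 h its call was lost without any one of the 0 h arrays or of 2 h replicates 1 and 2, with values from 0.79 to 0.97.

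Cfap45, a protein inside the ciliary microtubules, was detected on all arrays. It read 5.97, 6.74 and 6.34 at 0 h and 6.78, 6.47 and 7.37 at 2 h. At 6 h it read 8.84, 8.61 and 8.70, and at 18 h 9.19, 8.24 and 8.46, and all 6 of these arrays lay above every array at 0 h and 2 h. Its change was 0.52 at 2 h, which was not called, 2.37 at 6 h and 2.28 at 18 h (SE 0.28). Cfap52, another protein inside the doublets, read between 4.44 and 4.59 on all 6 arrays at 0 h and 2 h, none of which detected it. It read 6.18, 5.82 and 5.55 at 6 h and 6.77, 5.90 and 6.11 at 18 h, where all 6 arrays detected it. It was at least 1.74-fold higher at 6 h and 2.31-fold at 18 h than at 0 h (measured log2 changes 1.37 and 1.79, SE 0.22).

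Cfap69, an axonemal protein of sperm tails and olfactory cilia, read 4.72, 4.59 and 4.62 at 0 h, undetected, and 5.29, 5.56 and 5.55 at 2 h. It read 6.31, 6.30 and 6.30 at 6 h and 6.45, 6.25 and 6.70 at 18 h, so each of the first 3 groups lay clear of the one before. The bound was at least 1.33-fold at 2 h, 2.38-fold at 6 h and 2.66-fold at 18 h (measured log2 changes 0.82, 1.66 and 1.82, SE 0.15). The 2 h call was lost without 2 h replicate 2 (0.78).

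The other Cfap genes moved less or were at the edge of detection. Cfap410, which in humans is linked to retinal and skeletal disease, was higher by 0.86 at 6 h and 0.73 at 18 h (SE 0.24). It was detected on 1 array at 0 h and on all 6 at 6 h and 18 h, and its 18 h arrays overlapped those at 0 h. Its call was lost without 0 h replicate 3 (0.63 at 6 h, 0.50 at 18 h), and at 18 h also without 0 h replicate 2 (0.72) or 18 h replicate 1 (0.56). At 18 h, Cfap57 was higher by 0.82 (SE 0.18, at least 1.23-fold) and Cfap299 by 0.68 (SE 0.14, at least 1.10-fold). Cfap161, an inner microtubule protein, was higher by 0.94 (SE 0.31, at least 1.40-fold). It was detected on 2 of the 3 arrays at 18 h, and its call was lost without 0 h replicates 1 or 3 or 18 h replicate 1 (0.59 to 0.94). Scaling to the 75th percentile ended the calls of Cfap57 (0.56), Cfap161 (0.69), Cfap299 (0.37) and Cfap410 (0.54) at 18 h. Cfap20, a protein of the seam between the 2 tubules of a doublet, was higher by 0.42 at 18 h (SE 0.16), but the call was lost without any one array other than 0 h replicate 3 and 2 h replicate 3 (0.34 to 0.46) and with the 75th percentile scaling (0.30).

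Cfap20dc was the Cfap gene called lower. It read 8.03, 7.92 and 8.27 at 0 h and 7.26, 7.22 and 7.59 at 6 h, without overlap, a change of -0.72 (SE 0.18), and 8.04, 8.25 and 8.39 at 18 h. Cfap43, Cfap53, Cfap58, Cfap97, Cfap157 and Cfap300 were called at neither time, with measured changes from -0.15 to 0.54 at 6 h and from -0.27 to 0.49 at 18 h. With the replicate number as a block, Cfap300 (0.54 at 6 h) was called higher. Neither Cfap57 nor Cfap58 was detected on a 0 h array. Cfap57 passed at 6 h without 18 h replicate 1, with its 6 h mean under the lowest detected signals of the 0 h arrays, and Cfap58 passed at 18 h without 6 h replicate 3, where it was at least 1.06-fold higher.

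The counts of each class below stand beside the shares over all genes, 17.8% higher and 13.6% lower at 6 h. At 18 h those shares were 21% and 15.7%. With 13 genes at most in each of these classes, nothing is read from the counts. Of the 4 radial spoke genes, 3 were called higher at 6 h and 2 at 18 h. Radial spokes pass signals from the central pair of a motile axoneme to its dynein arms. Rsph1, a spoke head protein, read 7.27, 7.24 and 7.59 at 0 h, 7.77, 7.49 and 8.28 at 2 h, 9.07, 8.96 and 8.89 at 6 h and 10.25, 9.37 and 9.95 at 18 h. The 6 h arrays lay above all earlier ones and the 18 h arrays above all at 6 h. Rsph1 was 3.05-fold higher at 6 h (log2 change 1.61, SE 0.23, adjusted p = 0.000275) and 5.62-fold at 18 h (2.49, adjusted p = 9.58e-06).

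Rsph9, also of the spoke head, read 5.23, 6.11 and 5.34 at 0 h, 5.94, 5.96 and 6.96 at 2 h, 7.51, 7.26 and 7.37 at 6 h and 8.34, 7.33 and 7.53 at 18 h. No array at 6 h or 18 h overlapped those at 0 h or 2 h. The change was 1.82 at 6 h (SE 0.32, adjusted p = 0.00095) and 2.17 at 18 h (adjusted p = 0.000221). Rsph4a, the third spoke head gene, read 7.03, 6.32 and 6.64 at 0 h, 7.73, 7.37 and 6.63 at 2 h, 8.03, 7.81 and 7.45 at 6 h and 7.28, 6.65 and 6.44 at 18 h. It was higher at 6 h by 1.10 (SE 0.29, adjusted p = 0.0123; 0.0563 without 6 h replicate 1), and at 18 h its arrays overlapped those at 0 h (0.13, adjusted p = 0.773). Rsph3a, of the spoke stalk, has the near-identical copy Rsph3b, whose transcripts its probe may share, so its values are uncertain. Its change was 0.22 at 6 h and 0.67 at 18 h, not called (adjusted p = 0.627 and 0.097), though it passed at 18 h without 0 h replicate 2 (0.0163) or 18 h replicate 2 (0.0405).

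Of the 5 dynein chains with a kept probe, 2 were called lower at 6 h, and 1 was called in each direction at 18 h. Dnaic1 (now Dnai1), an intermediate chain of the outer arm, read 7.43, 8.22 and 7.72 at 0 h, 7.24, 7.41 and 7.43 at 2 h, 7.03, 6.73 and 6.72 at 6 h and 6.85, 6.61 and 6.05 at 18 h. Every array at 6 h and 18 h lay below every array at 0 h and 2 h. The change was -0.96 at 6 h (SE 0.23, adjusted p = 0.00614) and -1.29 at 18 h (adjusted p = 0.000772), the lowest value among the 52 genes at both times. Dnah11, an outer arm heavy chain, was lower at 6 h (-0.86, SE 0.17, adjusted p = 0.00208) and read -0.38 at 18 h (adjusted p = 0.091; 0.0243 without 0 h replicate 2).

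Dnal1, an outer arm light chain, read 5.73, 5.82 and 5.91 at 0 h, 5.58, 5.31 and 5.40 at 2 h, 5.71, 5.87 and 4.99 at 6 h and 6.67, 6.38 and 6.35 at 18 h. The 18 h arrays alone stood above the rest. Dnal1 was higher at 18 h by 0.65 (SE 0.21, adjusted p = 0.0249), a call lost without 0 h replicate 1 (adjusted p = 0.0758) or 18 h replicate 1 (0.0952). Dnah8, a heavy chain of sperm tails, was called at neither time (-0.38 and -0.21), apart from 6 h without 6 h replicate 2 (adjusted p = 0.025). Dnah7a, an inner arm heavy chain with the near-identical copies Dnah7b and Dnah7c and therefore uncertain, changed by 0.02 at 6 h and 0.00 at 18 h and was not called.

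Of the nexin-dynein regulatory complex, which ties neighbouring doublets together, Drc1 was detected on 2 arrays at 0 h and on all 3 at 18 h, where it was higher by 0.86 (SE 0.18, adjusted p = 0.0028). Its change at 6 h was 0.07. Drc3 differed by 0.26 at 6 h and 0.24 at 18 h and was not called (adjusted p = 0.371 and 0.393). Tekt1, a tektin filament protein of the doublets, differed by 0.09 and 0.22 and was not called either. At 2 h, without 0 h replicate 1, Tekt1 was called lower (-0.74, adjusted p = 0.0369).

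Of the 13 intraflagellar transport genes, 4 were called higher and 1 lower at 6 h, and 5 were higher at 18 h. Ift122, an IFT-A subunit, read 6.51, 6.77 and 6.37 at 0 h, 6.29, 6.63 and 6.58 at 2 h, 7.35, 7.33 and 7.13 at 6 h and 8.41, 7.88 and 7.75 at 18 h. Its 0 h and 2 h groups overlapped, and the 6 h and 18 h groups each lay clear of the one before. The change was 0.72 at 6 h (SE 0.19, adjusted p = 0.0112) and 1.46 at 18 h (adjusted p = 9.85e-05). The other IFT-A subunits, Ift43 and Ift140, were called at neither time, with changes of -0.26 and -0.02 at 6 h and 0.48 and 0.16 at 18 h. Ift43 passed at 18 h without 0 h replicate 2 (adjusted p = 0.0111, against 0.0526 with all arrays).

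Ift20, an IFT-B subunit that also sits at the Golgi, read 10.41, 9.99 and 10.13 at 0 h, 10.89, 10.73 and 10.72 at 2 h, 11.39, 11.27 and 11.40 at 6 h and 11.67, 11.17 and 11.52 at 18 h. Each treated group lay above the 0 h group. The change was 1.18 at 6 h (SE 0.17, adjusted p = 0.000227) and 1.27 at 18 h (adjusted p = 0.000103). At 2 h it was 0.60 (adjusted p = 0.0683), called with the replicate number as a block (0.0246) or without 18 h replicate 1 (0.0484). Ift27, a small GTPase of IFT-B, read 8.16, 8.02 and 7.49 at 0 h, 8.09, 8.03 and 8.17 at 2 h, 8.66, 8.54 and 8.36 at 6 h and 9.55, 9.15 and 8.88 at 18 h. The 18 h arrays stood above all others. Its change at 18 h was 1.31 (SE 0.20, adjusted p = 0.000328). Its 6 h change of 0.63 (adjusted p = 0.0306) was not called once 0 h replicate 3 (0.136) or 6 h replicates 1 (0.107) or 2 (0.0776) had been left out.

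Ift57 and Ift88, both of IFT-B, were 1.02 (SE 0.19, adjusted p = 0.00111) and 1.00 (SE 0.14, adjusted p = 0.000144) higher at 18 h. Ift57 was called at 6 h as well (0.57, adjusted p = 0.0366), but not without 0 h replicate 1 or any one of the 6 h arrays (adjusted p from 0.0749 to 0.153). Ift88 at 6 h was 0.36 higher (adjusted p = 0.0661) and passed without 18 h replicate 1 (0.048). Ift172, the largest IFT-B subunit, was lower at 6 h (-0.50, SE 0.17, adjusted p = 0.0425) and differed by 0.06 at 18 h. Its 6 h call was lost without any one of the 0 h or 6 h arrays, 2 h replicate 1 or 18 h replicate 2 (adjusted p from 0.052 to 0.142). Ift22, a Rab-like GTPase, was 0.60 higher at 6 h (adjusted p = 0.128, and 0.0405 without 2 h replicate 2) and 0.46 at 18 h. Ift52, Ift74, Ift80 and Ift81 were called at neither time, with changes from -0.06 to 0.48 at 6 h and from 0.05 to 0.57 at 18 h.

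Of the 8 Bbs genes, 3 were called higher at 6 h and 3 at 18 h, and Bbs9 was the one called at both times. Bbs9, a BBSome subunit, was higher by 0.53 at 6 h (SE 0.19, adjusted p = 0.0437) and 0.83 at 18 h (adjusted p = 0.00365). The 6 h call was lost without 0 h replicates 1 or 3, 2 h replicates 1 or 2, or 6 h replicates 2 or 3 (adjusted p from 0.051 to 0.172). Bbs4, another subunit, read 8.46, 8.63 and 8.22 at 0 h, 8.72, 8.53 and 8.58 at 2 h, 9.11, 8.97 and 9.07 at 6 h and 8.75, 8.30 and 8.46 at 18 h. The 6 h group stood above all the others, by 0.61 over 0 h (SE 0.16, adjusted p = 0.0112; 0.0516 without 0 h replicate 3). Bbs5 was 0.99 higher at 6 h (SE 0.17, adjusted p = 0.000929) and 0.44 at 18 h (adjusted p = 0.0641), where it passed without 2 h replicate 3 (0.0453) or 18 h replicate 2 (0.0395).

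Bbs7 and Bbs10 were called at 18 h only. Bbs7, a BBSome subunit, was higher by 0.80 (SE 0.17, adjusted p = 0.00274). Bbs10, a chaperonin-like protein that helps assemble the BBSome, read 6.98, 7.13 and 7.50 at 0 h, 6.76, 6.49 and 6.16 at 2 h, 7.00, 6.68 and 6.49 at 6 h and 7.55, 7.96 and 8.28 at 18 h. Its lowest arrays were at 2 h and 6 h and its highest at 18 h, where it was 0.73 above 0 h (SE 0.23, adjusted p = 0.0223). That call was lost without 0 h replicates 1 or 2 or 18 h replicates 2 or 3 (adjusted p from 0.0506 to 0.0917). Bbs1, Bbs2 and Bbs12 were called at neither time, with changes from -0.20 to 0.21 at 6 h and from -0.29 to 0.24 at 18 h. Bbs12 passed at 18 h without 18 h replicate 2 (adjusted p = 0.0421), and Bbs1 was called lower at 18 h with the 75th percentile scaling (adjusted p = 0.0191), where no 18 h array detected its probe and no fold is given.

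Of the 3 tectonic genes, Tctn2 and Tctn3 were called higher at 6 h and at 18 h and Tctn1 at neither. Tctn2 read 5.95, 5.84 and 5.09 at 0 h, 6.29, 5.45 and 6.24 at 2 h, 6.83, 6.80 and 6.36 at 6 h and 7.09, 6.21 and 6.70 at 18 h. The 6 h and 18 h arrays lay above those at 0 h. The change was 1.03 at 6 h (SE 0.29, adjusted p = 0.0163) and 1.04 at 18 h (adjusted p = 0.0137). These calls were lost without 0 h replicate 3 (adjusted p = 0.0747 at 6 h and 0.0663 at 18 h), without 6 h replicates 1 or 2 at 6 h (0.0621 and 0.0567) and without 18 h replicate 1 at 18 h (0.069).

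Tctn3 read 7.75, 8.16 and 7.73 at 0 h, 8.36, 8.02 and 8.30 at 2 h, 8.60, 8.61 and 8.57 at 6 h and 9.01, 8.19 and 8.23 at 18 h. At 18 h its upper value came from 1 array and the other 2 lay just above the highest at 0 h. It was higher by 0.71 at 6 h (SE 0.21, adjusted p = 0.0218) and 0.60 at 18 h (adjusted p = 0.0424). The 6 h call was lost without 0 h replicates 1 or 3 or 6 h replicates 1 or 2 (adjusted p from 0.0584 to 0.0742). The 18 h call was lost without 0 h replicates 1 or 3, 2 h replicates 1 or 3, any 6 h array or 18 h replicate 1 (adjusted p from 0.0504 to 0.183). Tctn1 read 5.20, 4.98 and 4.49 at 0 h, 4.66, 4.75 and 4.89 at 2 h, 4.93, 5.45 and 4.75 at 6 h and 4.58, 5.08 and 4.92 at 18 h. It was detected on 1 array at 0 h, 6 h and 18 h and on none at 2 h, and its groups overlapped.

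**Figure D2:**
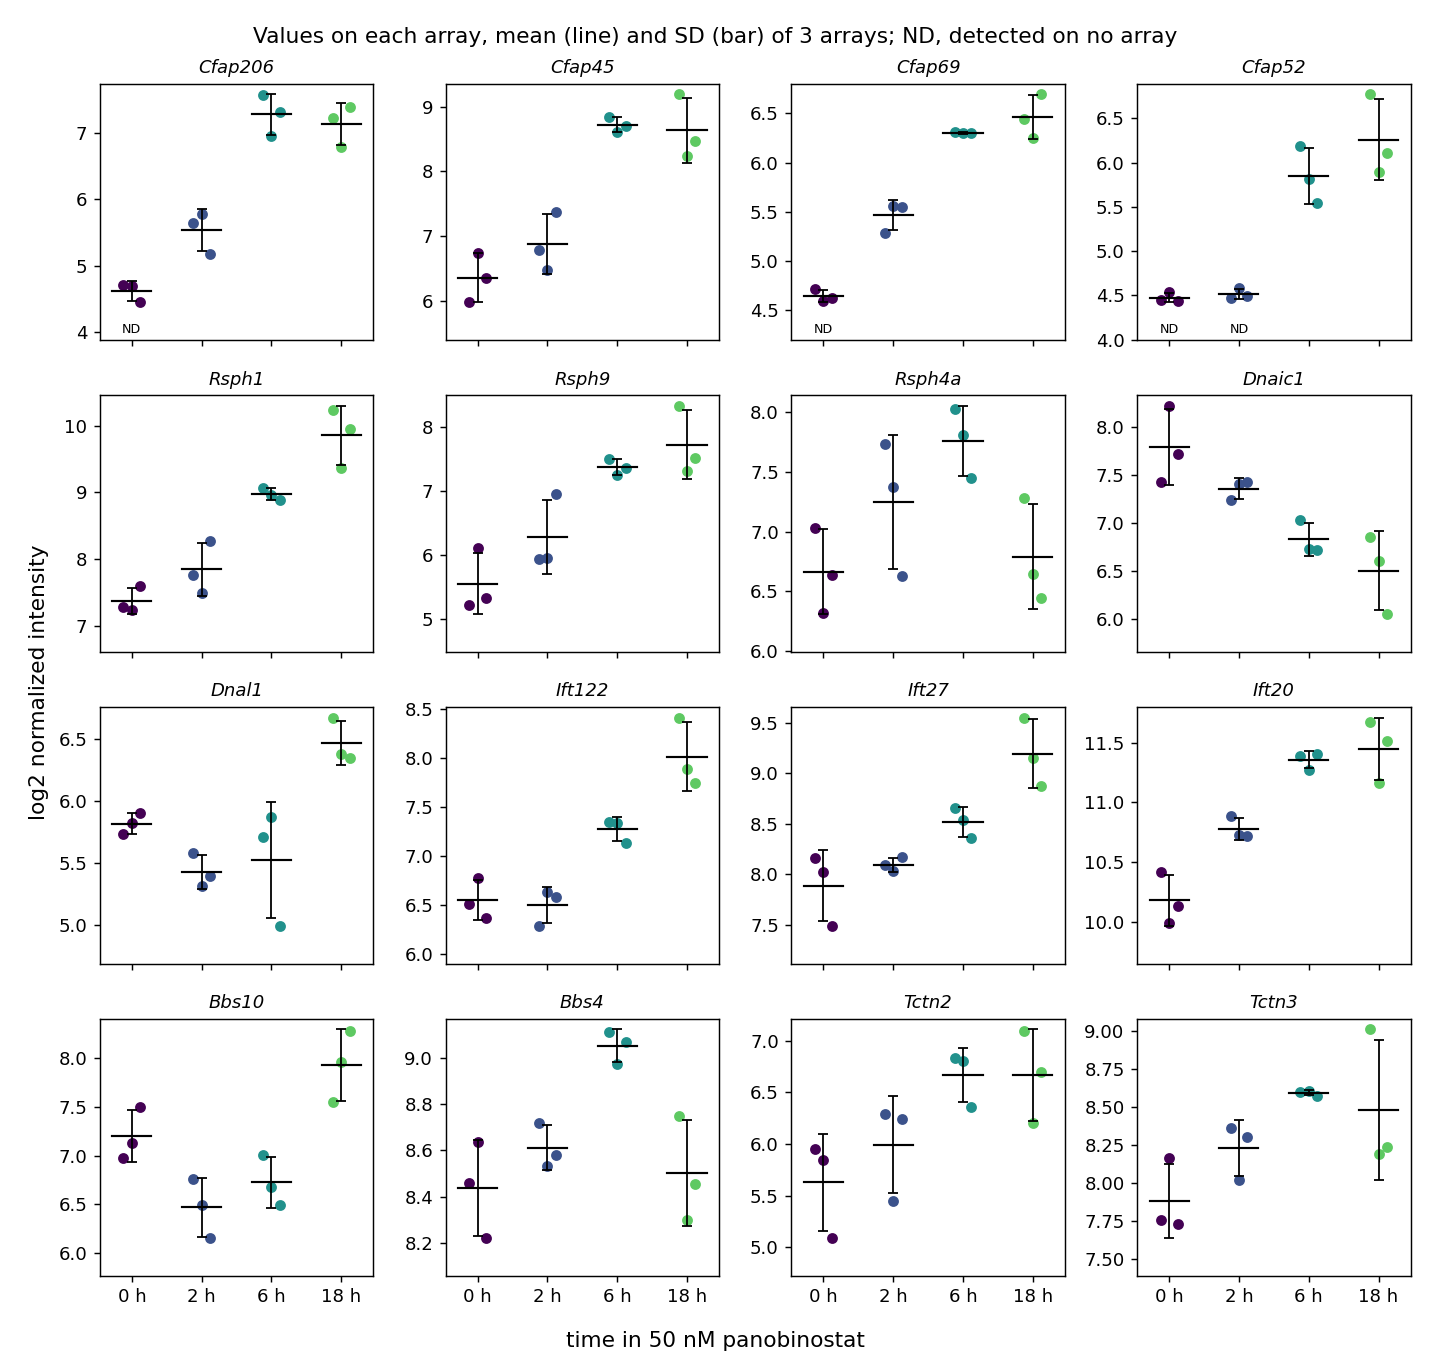
Points are the log2 normalized intensities of 16 genes on each array, lines the means and bars the SD of 3 arrays, by hours in 50 nM panobinostat, and ND marks a group in which no array detected the probe. Cfap206, Cfap45, Cfap69, Cfap52, Rsph1 and Rsph9 stand higher at 6 h and 18 h than at 0 h, Dnaic1 stands lower, and Rsph4a and Bbs4 are highest at 6 h.

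**Figure D3:**
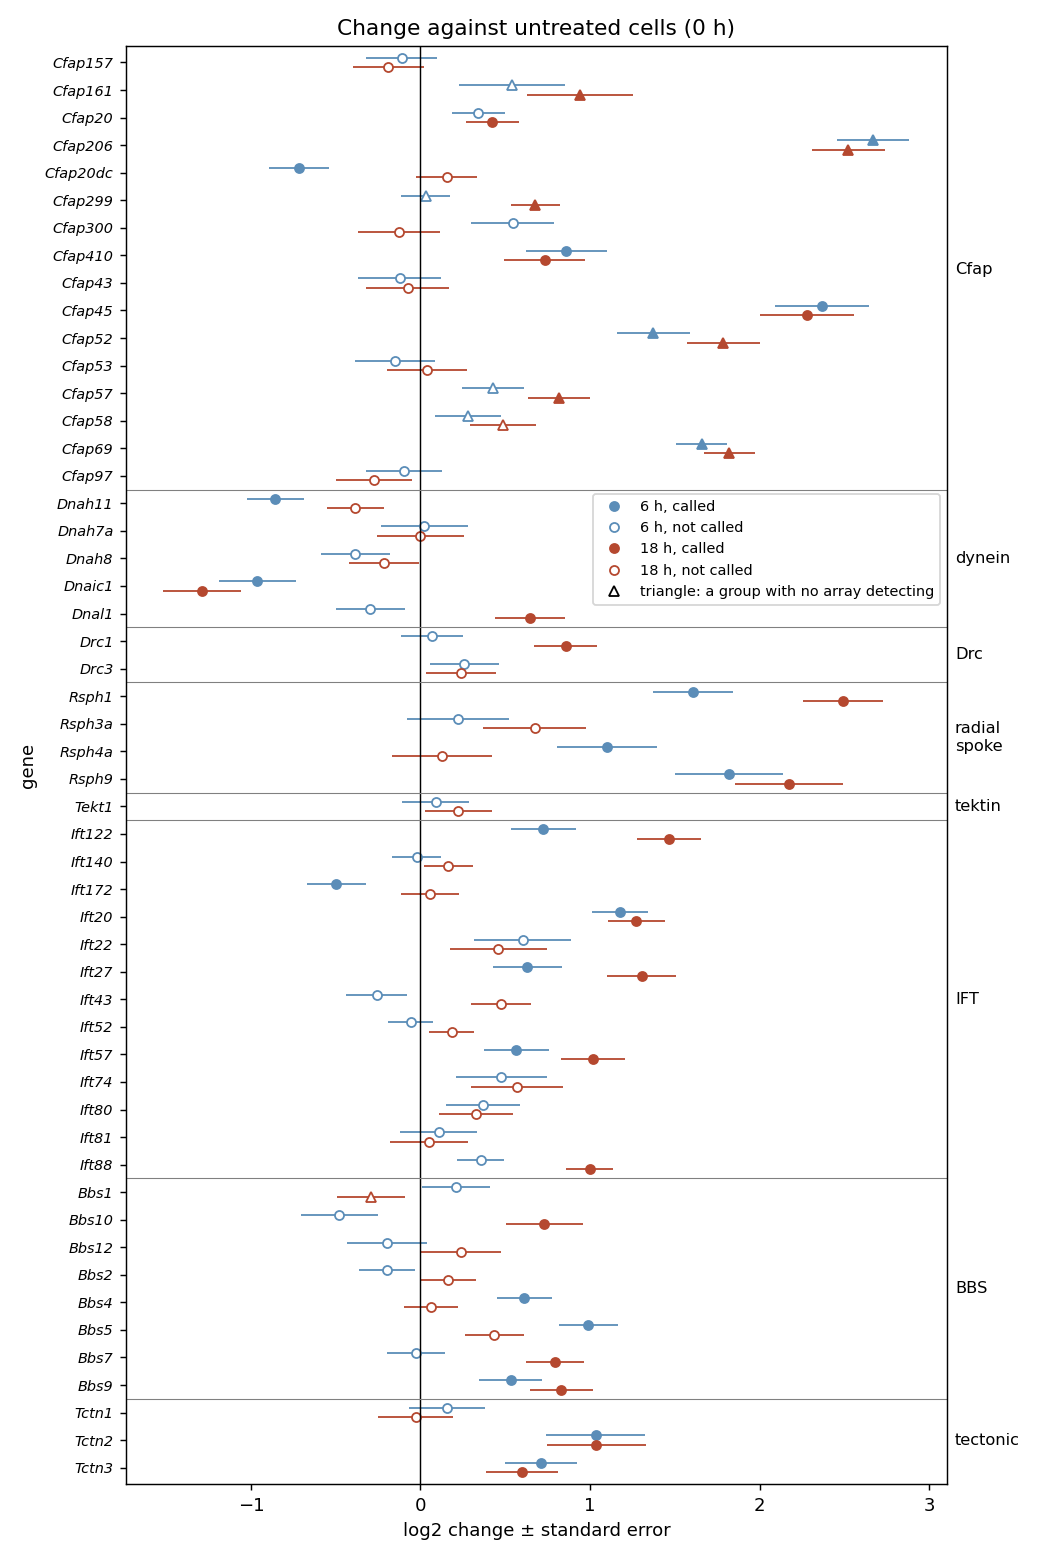
Points are the log2 changes of the 52 genes at 6 h (blue) and 18 h (red) against 0 h with their standard errors, filled where the adjusted p-value was under 0.05. Triangles mark measured differences from a group in which no array detected the probe, where the fold is known only as a bound. Among the circles the highest is Rsph1 at 18 h (2.49) and the lowest Dnaic1 at 18 h (-1.29).

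Some probes could be checked against other kept probes of the same gene. All 12 further probes of genes called at 6 h and all 14 of genes called at 18 h had a change of the same sign as the brightest probe. Those of Cfap69, Cfap206 and Cfap410 are among them, genes of the group whose rise led to the choice of the family. Only signs were compared, and sizes differed. The second probe of Tctn2 changed by 0.20 at 6 h and 0.24 at 18 h, less than the brightest. One further probe of Ift20 changed by 1.37 and 1.46, more than the brightest.

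Successive times were compared to see when the genes moved. Between 2 h and 6 h, 8 of the 36 genes other than Cfap were called, all of them higher (22.2%), where 13.1% of all genes were called (7.73% higher, 5.39% lower). Between 6 h and 18 h 9 of the 36 were higher (25%) and 2 lower, where 11.2% of all genes were called (6.21% higher, 5.03% lower). In place of these 8 there were 3, 5 and 5 without 2 h replicates 1, 2 and 3, and 2, 2 and 5 without 6 h replicates 1, 2 and 3. Over all genes 449, 479 and 571, then 317, 467 and 645, were higher in the same order, in place of 885. In place of these 9 and 2 there were 5, 5 and 4 higher without the same 6 h arrays. Over all genes 369, 406 and 329 were then higher, in place of 711. With the Cfap genes, 12 and 11 of the 52 were called higher, and these comparisons share the 6 h arrays. From 2 h to 6 h Cfap45 was higher by 1.84 (SE 0.28) and Cfap206 by 1.75 (SE 0.21), with every 6 h array above every 2 h array, and Cfap69 by 0.84 (SE 0.15). Cfap52, detected on no 2 h array, was at least 1.73-fold higher at 6 h (measured log2 difference 1.33, SE 0.22). Rsph1 rose by 1.13 (SE 0.23, adjusted p = 0.00885). Ift22 was higher by 1.11 (adjusted p = 0.0224), having read 4.56, 5.71 and 4.56 at 2 h with 1 array detected.

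Rsph9 was higher by 1.09 (adjusted p = 0.0393), Ift122 by 0.77 (0.0184), Bbs9 by 0.75 (0.0188), Bbs5 by 0.65 (0.0258), Ift88 by 0.60 (0.014) and Ift20 by 0.58 (0.036). Each of these 6 calls and that of Ift22 was lost without at least 1 array. For Ift88 it was 6 h replicate 1 (adjusted p = 0.0639), for Ift122 this array, 2 h replicate 1 or 6 h replicate 2 (0.0643 to 0.0796), and for Bbs9 2 h replicates 1 or 2 or 6 h replicate 2 (0.0681 to 0.0838). For Bbs5 it was 2 h replicate 3 or any 6 h array (0.0635 to 0.103), and for Ift22 2 h replicates 1 or 3 or 6 h replicates 1 or 2 (0.0533 to 0.103). For Rsph9 it was any 2 h or 6 h array other than 2 h replicate 3 (0.0832 to 0.14), and for Ift20 any array of both groups (0.0682 to 0.114). Dropping 2 h replicate 1 left 7 of the 52 genes called, and dropping replicate 1 or 2 of the 6 h group left 6. With the replicate number as a block Ift80 (0.51, adjusted p = 0.0297), Tekt1 (0.59, 0.0488), Cfap300 (0.56) and Cfap410 (0.67) were also higher and Dnah11 lower (-0.49, 0.0314). Tekt1 also passed without 0 h replicate 1 (0.0268) or 2 (0.0479), and Dnah11 without 0 h replicate 2 (0.0449).

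Of the 9 genes other than Cfap called higher from 6 h to 18 h, 6 were transport genes, 28.6% of the 21 kept. A further 3 were axonemal, 25% of the 12 kept axonemal genes other than Cfap, so these shares were near each other. Bbs10 rose by 1.21 (SE 0.23, adjusted p = 0.00628), Dnal1 by 0.94 (SE 0.21, adjusted p = 0.0132) and Bbs7 by 0.82 (SE 0.17, adjusted p = 0.00994), and Cfap20dc was higher by 0.87 (SE 0.18). The other 7 calls each depended on at least 1 array. Rsph1 was higher by 0.88 (adjusted p = 0.0296), Drc1 by 0.79 (0.0175), Ift122 by 0.74 (0.0262), Ift43 by 0.73 (0.0209), Ift27 by 0.68 (0.0485) and Ift88 by 0.64 (0.0119). Cfap299, detected on no 6 h array, was at least 1.11-fold higher at 18 h (measured log2 difference 0.65). Drc1 was not called without 6 h replicate 2 or 18 h replicate 3 (adjusted p = 0.0708 and 0.0572), Ift88 and Cfap299 (0.60) without 6 h replicate 3 (0.0502 for Ift88), and Ift43 without 6 h replicates 1 or 3 or 18 h replicate 2 (0.0545 to 0.0859). Ift122 was not called without any one 6 h array or 18 h replicate 1 (0.0606 to 0.0971), Rsph1 without any one 6 h array or 18 h replicates 1 or 3 (0.0685 to 0.0969), and Ift27 without any one 2 h or 6 h array or 18 h replicates 1 or 2 (0.0584 to 0.156).

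The 2 genes called lower from 6 h to 18 h were Rsph4a, by -0.97 (SE 0.29, adjusted p = 0.0494), and Bbs4, by -0.55 (SE 0.16, adjusted p = 0.0437). For both, the 18 h arrays lay below every 6 h array and overlapped the 0 h arrays. Rsph4a was not called without 0 h replicates 1 or 3, 2 h replicate 2, any 6 h array or 18 h replicates 2 or 3 (adjusted p from 0.051 to 0.165). Bbs4 was not called without 0 h replicate 1, any 2 h or 6 h array, or 18 h replicates 2 or 3 (0.0535 to 0.149). Without 6 h replicate 1, 2 or 3, 7, 7 and 5 of the 52 genes were called, none of them lower. With the replicate number as a block, Bbs1 (at least 1.10-fold, adjusted p = 0.0419, with no 18 h array detecting it), Bbs5 (-0.55, 0.0365) and Cfap300 (-0.67) were lower and Dnah11 (0.47, 0.0368) and Ift172 (0.55, 0.0466) higher as well, and 2112 in place of 1287 of all genes were called. Without a single array, Bbs5 passed without 2 h replicate 3 or 18 h replicate 1 (0.0407 and 0.0291), Ift172 without 18 h replicate 3 (0.0292) and Bbs12 without 18 h replicate 2 (0.0388). Cfap206, Cfap45, Cfap52, Cfap69 and Rsph9 were not called between 6 h and 18 h, with differences from -0.15 to 0.41.

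**Figure D4:**
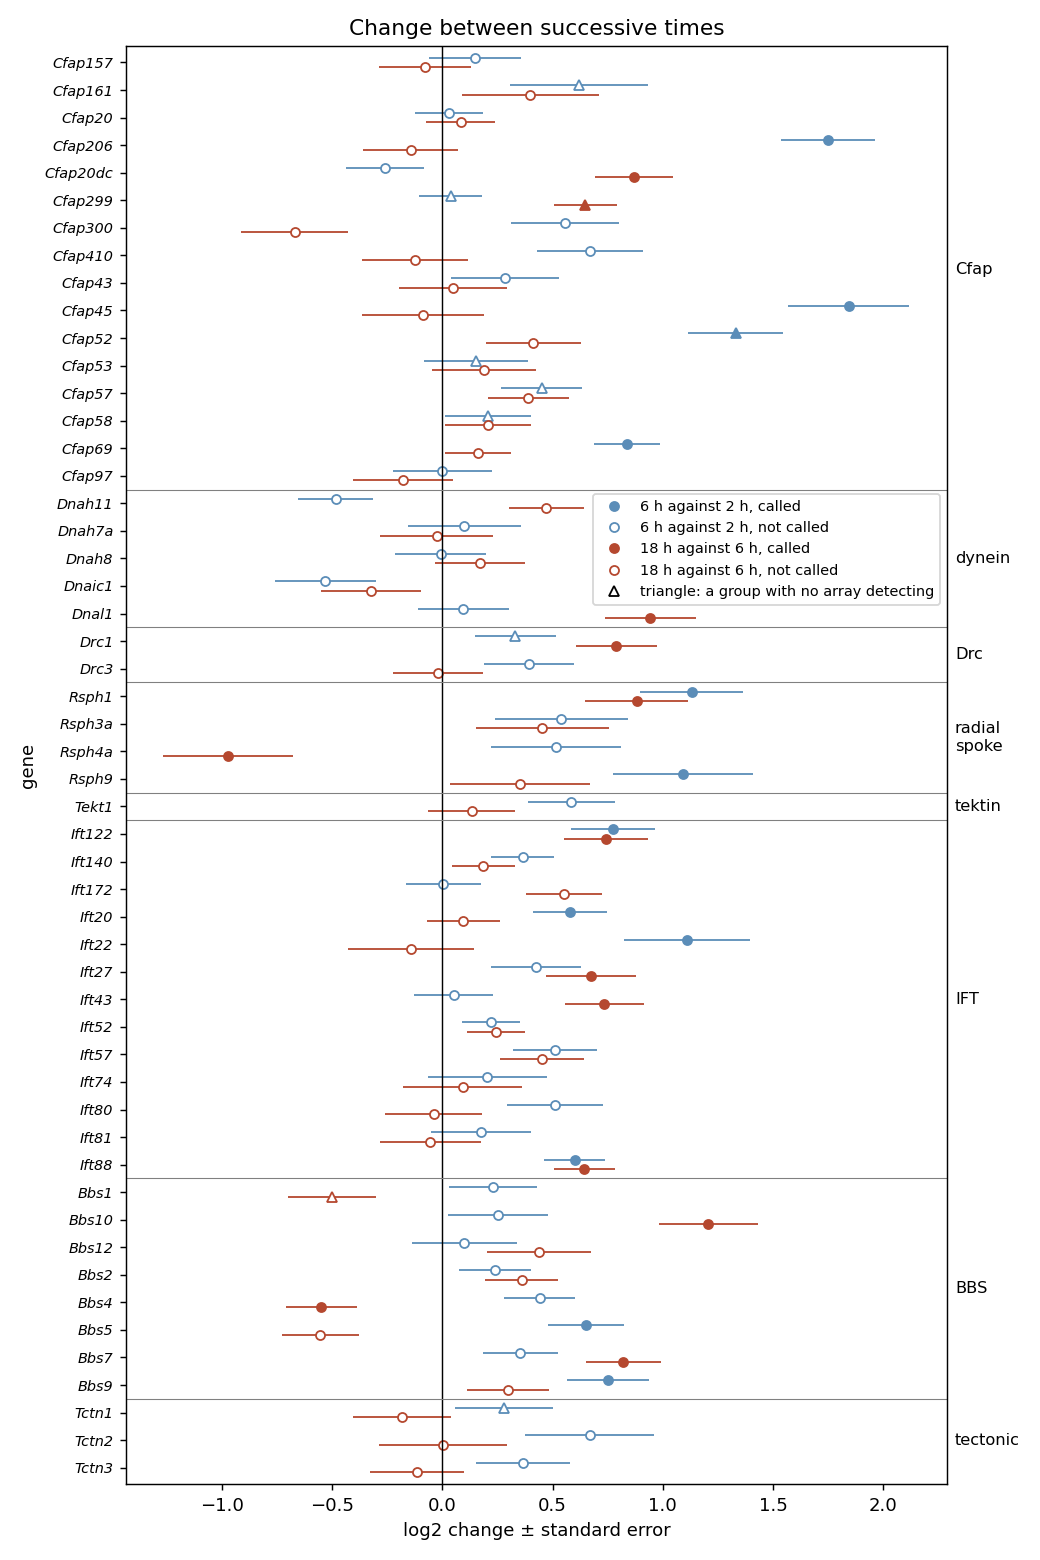
Points are the log2 changes of the 52 genes from 2 h to 6 h (blue) and from 6 h to 18 h (red) with their standard errors, filled where the adjusted p-value was under 0.05, with triangles for measured differences from a group in which no array detected the probe. Among the circles, Cfap45 (1.84) and Cfap206 (1.75) are highest from 2 h to 6 h and Bbs10 (1.21) and Dnal1 (0.94) from 6 h to 18 h, and Rsph4a and Bbs4 are the genes called lower.

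Genes of the same structures that bear other names were read from lists written with earlier results of these data known, so the lists are no independent evidence. Beside each list stand the shares over all genes given above, 17.8% higher and 13.6% lower at 6 h and 21% and 15.7% at 18 h, and the median changes of 0.023 and 0.045 over all genes. Some kept genes of the lists were detected on no 0 h array, and so entered through treated arrays alone. There was 1 each in the lists of IFT and BBSome, transition zone, basal body, signalling and tubulin modifying genes. Of these, Ttll3 at 6 h and Wdpcp and Sclt1 at 18 h are among the higher calls. Of 18 other axonemal genes with a kept probe, 8 had higher (44.4%) and 3 had lower values (16.7%) at 6 h by the test, with 9 (50%) and 3 at 18 h (median change 0.41 and 0.54). Spag6, Hydin and Ccdc39, 3 of the 18, were detected on no 0 h array and so entered through treated arrays. Ccdc39 is among the higher calls at 6 h and Hydin among those at 18 h. Nme5, a radial spoke protein, was 1.95 higher at 6 h and 2.49 at 18 h (adjusted p = 6.4e-05 and 6.27e-06). Gas8, a nexin-dynein complex subunit, was 1.93 higher at 6 h (adjusted p = 0.000241), and Spag6l, of the central pair, 1.52 at 18 h (adjusted p = 0.00123). Ccdc114, which docks outer dynein arms, was lower at both times (-0.92 and -0.99, adjusted p = 0.00673 and 0.00364), as was the adenylate kinase Ak7 (-0.88 and -1.12, adjusted p = 0.00737 and 0.00131). Of 8 dynein assembly factors, 5 were higher at 6 h (62.5%) and 3 at 18 h (37.5%; median 0.68 and 0.46), among them Dnaaf3 (1.55 and 1.75, adjusted p = 0.00208 and 0.000723). Dnaaf1 was 1.33 higher at 6 h (adjusted p = 0.00105) and Wdr92 1.17 at 18 h (adjusted p = 0.00227).

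Of 12 IFT and BBSome genes named otherwise, 4 were called higher at 6 h (33.3%) and 6 at 18 h (50%), and 1 was called lower at each time (8.33%; median 0.36 and 0.42). Ttc26, an IFT-B subunit, was 1.75 higher at 6 h and 1.23 at 18 h (adjusted p = 8.68e-05 and 0.000631). Rabl2 was 1.36 higher at 6 h (adjusted p = 0.000323) and the IFT-B subunit Ttc30b 0.95 at 18 h (adjusted p = 0.00915). Mkks, a chaperonin-like relative of Bbs10, was lower at 6 h (-0.61, adjusted p = 0.0132), a call lost without 0 h replicate 1 (0.0503) or 6 h replicate 2 (0.065). At 18 h it was lower by -0.46 (adjusted p = 0.0452), lost without any one array other than 0 h replicate 2, 2 h replicate 3 and 6 h replicates 1 and 2 (0.0528 to 0.136). Of 14 ciliary motor genes, 6 were higher at 6 h (42.9%) and 7 at 18 h (50%) and 0 lower (median 0.30 and 0.41). Dynlrb2, a dynein light chain of the roadblock family, was detected on no array at 0 h and on all 3 at 6 h and at 18 h, and so passed the filter through treated arrays alone. It was at least 1.59-fold higher at 6 h and 3.90-fold at 18 h (adjusted p = 0.00222 and 1.34e-05, measured log2 differences 1.27 and 2.56). Dynll2 was higher by 1.47 at 6 h (0.00139) and the kinesin Kif3a 1.38 at 18 h (2.68e-05).

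Of 17 transition zone genes, 5 were called higher (29.4%) and 2 lower (11.8%) at 6 h, then 6 (35.3%) and 4 (23.5%) at 18 h (median -0.08 and 0.29). Nphp4 was higher (1.78 and 1.95, adjusted p = 4.34e-05 and 1.15e-05), as was Anks6 (1.43 and 1.22, 0.000756 and 0.00165), while Cc2d2a was lower (-1.43 and -1.30, 0.000375 and 0.000553). Tmem17 was lower too (-1.33 and -0.84, adjusted p = 0.001 and 0.013), at 18 h not without 0 h replicate 3 (0.0626) or 18 h replicate 1 (0.0639). Of 27 basal body and centriole genes, 5 passed as higher (18.5%) and 3 as lower (11.1%) at 6 h, shares near those of all genes, with 9 (33.3%) and 6 (22.2%) at 18 h (median 0.12 and -0.03). Cep19 (1.60 and 1.27, adjusted p = 4.72e-05 and 0.000125) and Cenpj (1.61 and 1.27, 0.00012 and 0.000399) were higher, and Pcnt (-1.15 and -1.10, 0.00332 and 0.0034) was lower. Sass6, of the centriole cartwheel, was lower at 18 h (-0.89, 0.00389) and at 6 h (-0.67, 0.023), the latter not without 0 h replicate 3 or 6 h replicates 1 or 3 (0.0615 to 0.0863).

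Of 10 genes of ciliary membrane traffic and signalling, 5 were higher at 6 h (50%) and 2 at 18 h (20%, near the share of all genes; median 0.44 and 0.22), with Rab3ip at 1.13 (6 h, adjusted p = 0.00041), Arl3 at 0.88 and 1.53 (0.00171 and 2.99e-05) and Rab11a at 0.70 (18 h, 0.0115). Of 12 tubulin modifying enzymes, 5 were higher (41.7%) and 1 lower (8.33%) at each time (median 0.50 and 0.34). Sirt2, a tubulin deacetylase, was 1.02 and 1.55 higher (adjusted p = 0.00153 and 6.96e-05) and Ttll1, a polyglutamylase, 1.09 and 1.27 (0.00481 and 0.00142), while Ttll4, also a polyglutamylase, was lower (-0.63 at 6 h, 0.0103).

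Of 10 transcription factors of ciliogenesis with a kept probe, 1 was higher at each time (10%; median -0.11 and -0.12), Foxn4, a forkhead factor (2.04 and 2.87, adjusted p = 0.000326 and 2.39e-05). Rfx1 (-0.84, adjusted p = 0.00267) and Tfdp1 (-0.88, 0.00273) were lower at 6 h, and Tfdp1 also at 18 h (-0.71, 0.00764). Foxj1, the main factor of motile cilia, was detected on 2 arrays at 0 h and on 1 at each later time, with means from 5.28 at 0 h to 4.95 at 18 h. Mcidas was detected on no array, Gmnc on 1 array at 0 h, and Rfx3 on 1 or 2 arrays of each group.

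Markers of other cell types moved beside these genes, and their part in the results was not tested. Of the 17 multiciliated cell markers on the array, 3, 4, 8 and 8 were detected on all 3 arrays at 0 h, 2 h, 6 h and 18 h. Their summed normalized intensity, on the linear scale, ranged over 1182 to 1863 at 0 h, 1024 to 1545 at 2 h, 1470 to 2148 at 6 h and 2720 to 3784 at 18 h. Of the 11 with a kept probe, 6 were higher (54.5%) and 1 lower at 6 h and 6 were higher at 18 h (54.5%; median 0.72 and 1.38). Dynlrb2, Tppp3 and Sntn, 3 of the 11, were detected on no 0 h array and so entered through treated arrays alone. All 3 count among the higher ones at 6 h, and Dynlrb2 and Tppp3 also at 18 h, so nothing is read from these shares. Among the higher ones were Mlf1 (2.48 at 18 h, adjusted p = 2.7e-05), 1700016K19Rik (1.30 at 6 h, 0.00566) and Dynlrb2, which the motor list also holds. Fam183b was lower at 6 h (-1.18, adjusted p = 0.00313). Mcidas, Deup1 and Trp73, which help to define that cell type, were detected on no array.

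Of 28 sperm and spermatid genes, 22, 21, 19 and 15 were detected on no array of the 0 h, 2 h, 6 h and 18 h groups. The sum of all 28 ranged over 916.8 to 1014 at 0 h, 864.2 to 929.0 at 2 h, 895.5 to 1026 at 6 h and 1234 to 1326 at 18 h. Of the 8 with a kept probe, 2 were higher (25%) and 1 lower at 6 h and 5 were higher at 18 h (62.5%; median 0.04 and 0.80). Hspa1l, Zpbp2 and Izumo1, 3 of the 8, were detected on no 0 h array and so entered through treated arrays alone. The 2 higher calls at 6 h were Hspa1l and Zpbp2, and all 3 genes count among the higher ones at 18 h. Nothing is therefore read from these shares. Hspa1l, one of these 3, was at least 1.49-fold higher at 6 h and 1.92-fold at 18 h (adjusted p = 0.00113 and 0.000129), and Spaca1 was higher by 1.29 at 18 h (0.000262). Zpbp2, another of them, was at least 1.14-fold higher (adjusted p = 0.0156) and Catsper2 lower (-0.81, 0.0237) at 6 h. The first call was lost without 0 h replicate 3 or 6 h replicate 1 (0.0501 and 0.0647), and the second without 0 h replicates 2 or 3 or 6 h replicates 1 or 2 (0.0522 to 0.112). Odf1, Tnp2, Akap3, Acrv1 and Smcp were detected on no array.

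The sum of 13 fibroblast markers ranged over 391.8 to 612.4 at 0 h, 509.1 to 585.2 at 2 h, 756.1 to 930.7 at 6 h and 1013 to 1460 at 18 h. Of the 7 with a kept probe, 3 were higher at 6 h (42.9%) and 4 at 18 h (57.1%; median 0.44 and 0.60), with Thy1 at 1.82 and 2.22 (adjusted p = 0.000671 and 0.000131) and Fbln2 at 1.99 (18 h, 0.000103). Pdgfra and Pdgfrb, 2 of the 7, were detected on no 0 h array and so entered through treated arrays. Both count among the higher ones at 6 h and at 18 h. Pdgfra was at least 1.21-fold higher at 6 h (adjusted p = 0.00108), while Col3a1, Dcn, Lum and Postn were detected on no array. Of 11 stem cell markers, 0 were higher and 9 lower at both times, such as Nanog (-2.20, adjusted p = 0.000313) and Zfp42 (-2.34, 0.000204) at 6 h and Esrrb (-2.54, 2.86e-05) and Utf1 (-2.45, 5.6e-06) at 18 h. The sum of the 12 stem cell markers ranged over 52260 to 63760 at 0 h and 30120 to 35720 at 18 h.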

How the data were processed

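Signals of 45281 probes on 12 arrays were read from the table of values before normalization. Its intensities are linear signals that the authors deposited without normalization, and the submitters' processing notes name GenomeStudio, whose version and settings are not given in the sources used here. A detection p-value for each signal was deposited beside it, per the file headers. The authors' second deposited table of normalized intensities served as an alternative, and in each array its values rank as the signals do. Probes were named through the platform annotation, updated to RefSeq symbols by gene ID: 34885 probes had 1 gene, 18 several and 10378 none.

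With limma 3.58.1 in R 4.3.3, signals were background-corrected by normexp, offset 16, the negative control distribution being inferred from detection p-values, log2 transformed and quantile normalized. A probe was kept if its detection p-value fell under 0.05 on at least 3 arrays (20029 probes), and the brightest kept probe stood for a gene. One linear model with a mean for each of the 4 groups was fitted to 11445 genes. Tests were moderated, 2-sided and Benjamini-Hochberg adjusted, with a threshold of 0.05. The script recovered known changes when tested on simulated data with independent noise on each array. Those data had no link between replicates and no detection floor, so they do not show how often small changes are called here.

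Where no array of the dimmer group detected a probe, a fold of a named gene is given as "at least", and any log2 difference beside it is the measured one, against the mean of, per array, the higher of the lowest signal among detected probes and the probe's own value. Correlations of same-numbered arrays' deviations from their group means were 0.067 to 0.491 over 18 pairs and -0.405 to 0.132 over 36 pairs of different number. All same-numbered pairs exceeded 0.1 in every comparison but 18 h against 0 h, so in those the same-numbered arrays deviated together. Deviations from a group mean cancel within the group, so the correlations for same and different numbers are not independent. No label says what the number marks, and the main model has no term for it. Blocked values are given where a call changed. Normalization, background, filters, probe choice, array weights, the samples fitted and each array left out were varied. The files name no slide. The genes and lists were chosen with earlier results of these data known. Every kept gene of the family is named; values on every array are given for the 12 with the largest called change at 6 h or 18 h, the tectonic genes and up to 3 in each direction between successive times, and of each list up to 2 genes in each direction. Summed levels of lists are sums of 2 to the power of the log2 values over the genes of a list.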

Additional observations from a re-analysis of the deposited data

Results flagged for a closer look

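The change differed between successive times for the genes called between 2 h and 6 h or between 6 h and 18 h by the limma test of the difference. Values of Cfap genes are listed here as a description, since their rise led to the choice of the family. Cfap52, Cfap69, Cfap206 and Cfap299 also passed the filter through treated arrays alone. From 2 h to 6 h the log2 differences were 0.65 for Bbs5, 0.75 for Bbs9, 1.75 for Cfap206, 1.84 for Cfap45, 1.33 for Cfap52 and 0.84 for Cfap69. They were 0.77 for Ift122, 0.58 for Ift20, 1.11 for Ift22, 0.60 for Ift88, 1.13 for Rsph1 and 1.09 for Rsph9.

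From 6 h to 18 h the log2 differences were 1.21 for Bbs10, -0.55 for Bbs4, 0.82 for Bbs7, 0.87 for Cfap20dc, 0.65 for Cfap299, 0.94 for Dnal1 and 0.79 for Drc1. They were 0.74 for Ift122, 0.68 for Ift27, 0.73 for Ift43, 0.64 for Ift88, 0.88 for Rsph1 and -0.97 for Rsph4a. Cfap52 was detected on no 2 h array and Cfap299 on no 6 h array, so their folds are known only as at least 1.73 and 1.11. The 6 h arrays enter both sets of differences.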

How the results depend on the processing

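No called gene of the family changed direction under any alternative. In every setting that tested the gene, calls held for 0 of 2 genes at 2 h and 12 of 21 at 6 h. At 18 h they held for 15 of 24. From 2 h to 6 h they held for 5 of 12 and from 6 h to 18 h for 4 of 13. These counts contain Cfap genes, whose rise led to the choice of the family. As a description that adds no support, Cfap45, Cfap52, Cfap69 and Cfap206 held at 6 h and 18 h. From 2 h to 6 h they held with Rsph1 alone beside them. Cfap52, Cfap69 and Cfap206 had passed the filter through treated arrays alone. Cfap20dc held at 6 h and from 6 h to 18 h. Drc1, held at 18 h, was tested in 23 settings and most genes in 24. For the family at 2 h (2 genes), both Cfap calls were lost and 1 other gene was called with no background correction, an offset of 50 or the authors' values (Ift20, adjusted p from 0.0341 to 0.0399) and with the mean of all kept probes (Tekt1, lower, 0.0471). Cfap69 alone was called with no filter on dim probes or only the groups compared, and 0 genes were called with the 75th percentile or cyclic loess. With array weights, 20 of the family in place of 12 were called from 2 h to 6 h. Of all genes, 217 (only the groups compared), 677 (array weights) and 763 (replicate block) in place of 395 were called at 2 h, where only the groups compared moved the share of higher calls from 69.1% to 79.7%. Array weights called 2859 in place of 1502 from 2 h to 6 h, and the replicate block 2112 in place of 1287 from 6 h to 18 h.

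Leaving out 1 array, the family's calls ranged over 0 to 3 at 2 h, 14 to 23 at 6 h, 18 to 25 at 18 h, 6 to 14 from 2 h to 6 h and 5 to 13 from 6 h to 18 h. At 2 h, 1 (Cfap69) was called without 0 h replicates 2 or 3 or 2 h replicate 1 and 0 without 2 h replicate 2. Calls over all genes ranged over 144 to 559, 2575 to 3850, 3187 to 4409, 536 to 1824 and 535 to 1573 in the same order. At 2 h, dropping 0 h replicate 3 left 159, and dropping replicate 1, 2 or 3 of the 2 h group left 144, 169 or 157. From 2 h to 6 h, dropping those 2 h arrays left 725, 834 or 977, and dropping replicate 1 or 2 of the 6 h group left 536 or 778. From 6 h to 18 h, dropping replicate 1, 2 or 3 of the 6 h group left 596, 686 or 535, and dropping 18 h replicate 2 left 678. Leaving out an array makes 1 group smaller, and no other cause was tested.

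The replicate block ended no call of the family. Where it changed a call its value stands beside the result. At 18 h against 0 h, same-numbered arrays correlated at 0.067, 0.259 and 0.418 for replicates 1, 2 and 3, the first of them under 0.1. There the block added Bbs5 (adjusted p = 0.0496), Cfap58, Ift43 (0.0184) and, lower, Dnah11 (0.0437). A slide block was not run, since the files name no slide. Probes near background, such as those of Cfap161, Cfap299 and Tctn1, limit what can be said of their genes.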
